A study of Mus musculus with 12 samples.

Results

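The genes described here are the nuclear genes for the subunits of oxidative phosphorylation, followed by their symbols in mouse regulatory T cells (Treg) with and without the transcription factor Ikaros. Members were the genes whose symbol begins with Nduf followed by a, b, c, s or v and a number, with Uqcr, with Cox followed by a number from 4 to 8 or with Atp5 followed by a letter from a to o, together with Sdha, Sdhb, Sdhc and Sdhd. Symbols holding -ps were left out. This rule, which uses no measured value, found 84 of the 36222 genes in the table. By name, 37 belonged to complex I, 4 to complex II, 8 to complex III, 18 to complex IV and 16 to complex V, and 1, Cox4nb, carries a Cox name without being a subunit. Atp5l2, counted in complex V by its name, is annotated as a pseudogene.

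Treg had been sorted as CD4+ cells positive for yellow fluorescent protein, each library from 1 animal, with spleen as the labelled tissue (the study's methods name lymph nodes beside the spleen for its Treg), and their RNA was sequenced in 12 libraries of 4 groups with 3 libraries each. All animals carried Foxp3-YFP-Cre, in which the Foxp3 gene drives both the marker and the Cre recombinase. Wild-type (WT) animals carried this Cre alone, whereas conditional knockout (cKO) animals also carried Ikzf1 fl/fl, a design that deletes the gene of Ikaros in cells that express Foxp3. Libraries were made from cells as sorted (ex vivo) or after 4 h of culture on plate-bound anti-CD3 and anti-CD28, each coated at 1 µg/ml. No group of cells was cultured without the antibodies, so stimulation and 4 h of culture cannot be told apart.

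Oxidative phosphorylation takes place in the inner mitochondrial membrane. Complex I accepts electrons from NADH and complex II from succinate, both pass them to coenzyme Q, complex III hands them on to cytochrome c, and complex IV gives them to oxygen. Complexes I, III and IV pump protons as they work, and complex V, the ATP synthase, makes ATP from their return. Most subunits are encoded in the nucleus, imported and assembled with a few made from mitochondrial DNA. Treg are known for a strong use of mitochondrial respiration, and T cell activation is known to shift the balance between respiration and glycolysis.

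Values are TPM, transcript levels per length, divided by the scaling factor of the library (scaled TPM), and changes are differences of log2(scaled TPM + 1). Called means an adjusted p under 0.05 in limma, over all 13318 tested genes, with all 12 libraries and this scaling unless another setting is named. Ikzf1, the deleted gene, stood at 114, 104 and 113 in the WT libraries ex vivo and at 42.1, 33.03 and 38.4 in the cKO libraries. After stimulation it stood at 66.7, 71.1 and 68.9 in WT and 29.96, 30.1 and 23.3 in cKO. The genotypes did not overlap in either state, with log2 changes of -1.52 (SE 0.11, adjusted p = 5.45e-05, limma) and -1.29 (SE 0.11, adjusted p = 0.000161, limma). These values count reads over all exons of the gene, deleted or not. Foxp3, the gene that defines Treg, was higher in cKO after stimulation by 0.96 (SE 0.18, adjusted p = 0.00847, limma). Of 9 markers of T cells and Treg, Foxp3 among them, 2 were called higher and 1 lower in that comparison. Their median change was 0.21, and 6.93% of all genes were called. Reads per library ranged from 8208659 to 20247649. A single gene, Gm10800, held 17.7 to 55.9% of a library's TPM, most of it in cKO stimulated 3. Olfactory and vomeronasal receptor genes, silent in T cells, had a median of 0.505 to 1.44 scaled TPM, again highest in cKO stimulated 3. Gm10800 held 17.7 to 39.8% in the ex vivo libraries and 32.6 to 55.9% in the stimulated ones, and the silent genes had medians of 0.505 to 0.979 and 0.729 to 1.44. The part of Gm10800 in the changes with stimulation was not tested, while after subtraction of the silent gene level 22 of 72 members were called with stimulation in WT (5 higher, 17 lower), against 37.3% of all genes, and 25 of 72 in cKO (8 higher, 17 lower), against 46.5%. Of the members called without it, 17 of 18 falls and 4 of 4 rises in WT and 17 of 24 falls and 5 of 6 rises in cKO were still called. WT ex vivo 3 also stood apart, with Xist at 191 against at most 1.86 elsewhere and Ddx3y at 0.103 against at least 20.01, so this animal's sex differed from that of the others. Of genes known to respond to T cell activation, Myc rose with stimulation in both genotypes (0.61 and 0.64, adjusted p = 0.0113 and 0.00703, limma) and Cd69 fell (-1.36 and -1.71, adjusted p = 0.000517 and 9.42e-05, limma). Nr4a1 fell in WT (-0.55, adjusted p = 0.0307, limma), so that Cd69 and Nr4a1, both known to be induced early, went against the label of stimulated cells. Markers of T cells and Treg summed to 1476 to 2782 scaled TPM in every library, while those of B cells summed to 8.62 to 21.3, myeloid cells to 7.38 to 18.03, CD8 T cells to 8.72 to 14.5, NK cells to 2.52 to 7.37 and erythroid cells to 1.45 to 6.89. The T cell and Treg markers moved with stimulation, with sums of 2401 to 2782 ex vivo and of 1476 to 1995 after it, and 6 of these 9 markers were called lower in each genotype (medians -0.56 and -0.77). Of the other markers Cd79b of B cells was called higher in cKO after stimulation by 0.96 (SE 0.23, adjusted p = 0.0283, limma) and lower with stimulation in WT, by 0.68 (SE 0.23, adjusted p = 0.0406, limma). The part of these markers in the results was not tested. In bulk RNA, fewer cells of a type and less RNA per cell cannot be told apart.

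Transcripts of all 5 complexes were measured in every group. The 75 members that reached 5 TPM as the mean of at least 1 group were tested, 74 of them subunits. The other 9 were Atp5g1, Atp5l2, Cox4i2, Cox6a2, Cox7b2, Cox8b, Cox8c, Ndufa4l2 and Ndufb2. For 14 of the 84 members over 20% of the transcript words of 51 bases also match the genome elsewhere, so that reads could be shared with copies. Complex IV summed to 1042 ± 184 scaled TPM (mean ± SD, n = 3) in WT ex vivo, complex I to 852 ± 126, complex V to 533 ± 64.6, complex III to 319.8 ± 35.8 and complex II to 114 ± 10.46. The member of highest mean level over all libraries was Cox8a in complex IV with 195.5, Atp5a1 in complex V with 113.7, Uqcrc1 in complex III with 67.9, Ndufa4 among the Nduf names with 65.0 and Sdha in complex II with 37.5. Cox8a is a small subunit of the membrane part, Atp5a1 the alpha subunit of the catalytic head, Uqcrc1 a core protein and Sdha the flavoprotein that oxidises succinate. Ndufa4 was named as part of complex I and is now known as a subunit of complex IV.

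With untested members counted, complex IV had the highest ratio of its highest to its median member. Its highest member was 10.04 times its median member, against 6.30 times in complex V, 3.98 times in complex I, 1.88 times in complex III and 1.46 times in complex II. Of the complex IV members 13 of 18 were tested, against 14 of 16 in complex V. The ratios were not taken over tested members alone. In WT ex vivo the complex IV sums were 1008, 878 and 1240.3, and in cKO ex vivo 991, 892 and 993. After stimulation they were 704, 733 and 747 in WT and 689, 737 and 639 in cKO. Ex vivo the genotypes overlapped, and every stimulated library lay under every ex vivo library. On TPM as deposited this separation was lost, since WT ex vivo 2 stood at 709 and WT stimulated 1 and 3 at 789 and 904. WT ex vivo 3 had the highest scaled sum of all libraries in each of the 5 complexes.

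**Figure D1:**
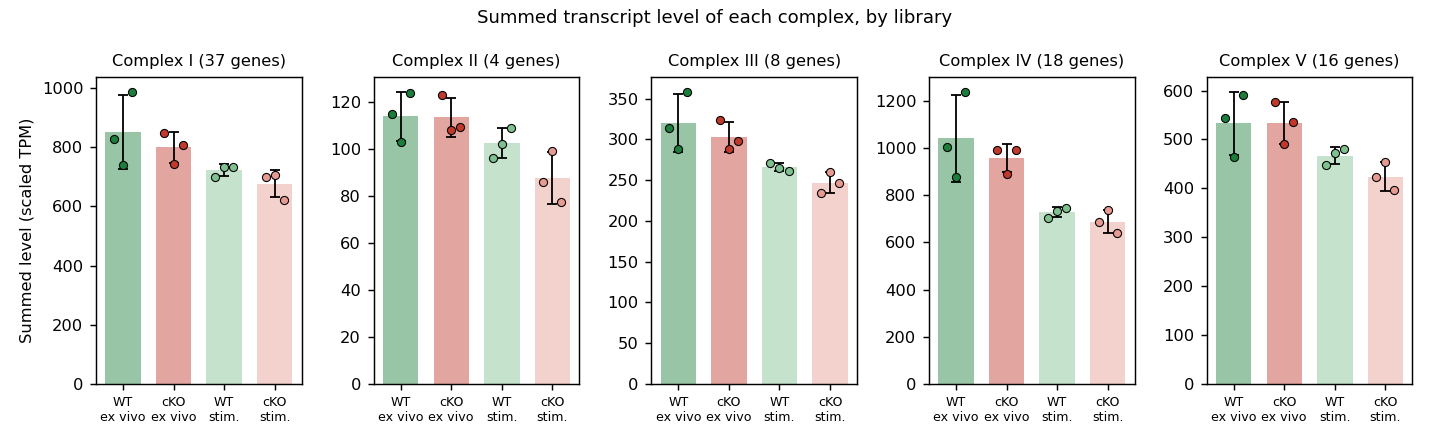
Summed level of each complex in scaled TPM, 1 panel per complex and 1 point per library, with bars for the group mean and error bars for the SD (n = 3). Means of the stimulated groups are lower than those of the ex vivo groups in each complex, for example 728 ± 22.01 against 1042 ± 184 in complex IV of WT; on TPM as deposited the means of complex II in WT were 109 ± 22.6 ex vivo and 112 ± 18.6 stimulated.

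The comparison of cKO with WT ex vivo asks whether loss of Ikaros alters these transcripts in Treg as sorted. A single member, Ndufb9, was called, and it was lower in cKO. This was 1 of 75 members, while 5.29% of all 13318 tested genes were called and 1.67% were called lower. The median change of the members was -0.048, against -0.0069 over all genes. By complex the medians were -0.048 in complex I, 0.0015 in complex II, -0.05 in complex III, -0.12 in complex IV and -0.013 in complex V. At an unadjusted p under 0.05, 9 members passed (12%), against 17.9% of all genes. The 95% interval of the change lay within 2-fold in both directions for 75 of 75 members and within 1.5-fold for 64.

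Ndufb9 (ENSMUSG00000022354, mm9 chromosome 15, 58765365 to 58771044, plus strand) encodes an accessory subunit of the membrane arm of complex I. It stood at 26.97, 26.5 and 31.4 scaled TPM in WT ex vivo and at 20.3, 21.5 and 20.6 in cKO ex vivo, without overlap. After stimulation the levels were 29.1, 34.96 and 32.2 in WT and 31.8, 28.6 and 33.7 in cKO, and the genotypes overlapped. The change ex vivo was -0.42 (SE 0.10, adjusted p = 0.0292, limma). This call rests on few libraries, since it was lost in 5 of the 12 fits that each left out 1 library. Its adjusted p in limma was 0.0531 without WT ex vivo 1, 0.104 without WT ex vivo 3, 0.0972 without cKO ex vivo 1, 0.063 without cKO ex vivo 2 and 0.0959 without cKO ex vivo 3, and over all alternatives it ranged from 0.0262 to 0.664.

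After stimulation no member was called between the genotypes, while 6.93% of all genes were, and 9 members (12%) had an unadjusted p under 0.05 in limma, against 23.8% of all genes. The median change of the members was -0.068, against -0.035 over all genes. The 95% interval lay within 2-fold for 74 of 75 members and within 1.5-fold for 58. The exception was Ndufb4, an accessory subunit of complex I, with an interval of -0.02 to 1.24. Of the complexes, complex II had the lowest median, -0.22 over 4 genes. Its member Sdhd, a membrane anchor, had the smallest adjusted p of all members, 0.0923 in limma with a change of -0.37. Without cKO stimulated 2 the change of Sdhd was -0.52 with an adjusted p of 0.0235 in limma, and over all alternatives the adjusted p ranged from 0.0235 to 0.348.

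**Figure D2:**
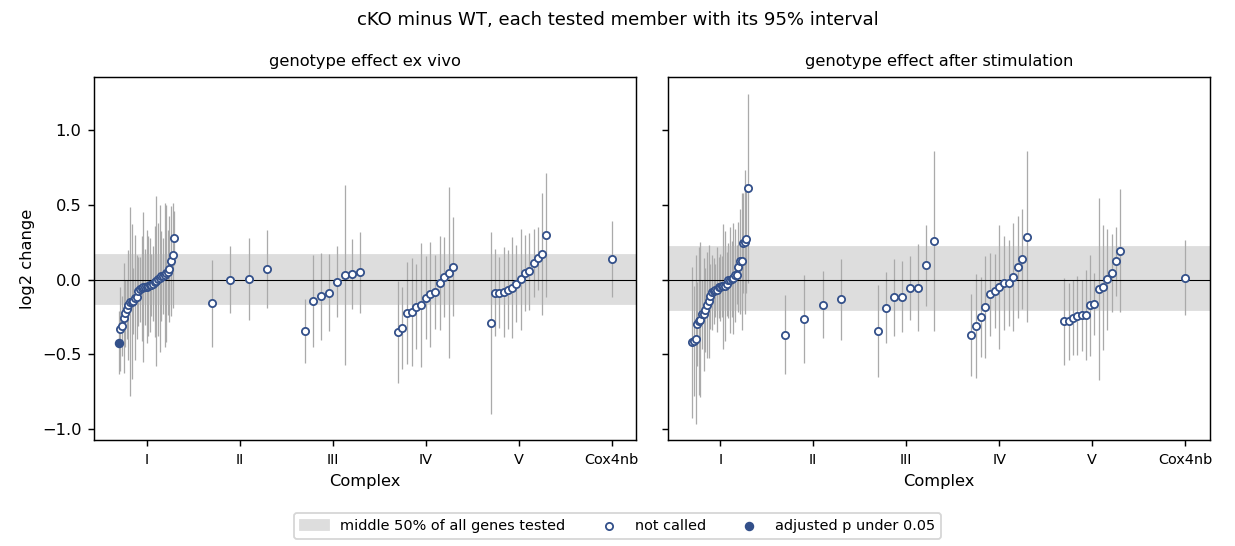
Log2 change from WT to cKO of each tested member with its 95% interval, ordered by size within each complex, ex vivo (left) and after stimulation (right), and a grey band over the middle 50% of all tested genes. Filled points mark an adjusted p under 0.05, which only Ndufb9 ex vivo reached.

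Some respiratory chain transcripts fell with stimulation in WT Treg and a few rose. In WT, 22 of the 75 members (29.3%) were called, 4 higher and 18 lower, while among all genes 32% were called, 12.7% higher and 19.3% lower. The median change of the members was -0.21 against 0.0021 over all genes, and it was 0.0096 when libraries were brought to 1 distribution by quantile normalization. In complex I, 7 of 35 members fell and 1 rose. In complex III 3 of 8 fell, in complex IV 5 of 13 fell and 1 rose, in complex V 3 of 14 fell and 1 rose, and no member of complex II was called. Without WT ex vivo 3 the count was 12 (4 higher, 8 lower), against 26.0% of all genes, and without WT stimulated 1 it was 12 (2 higher, 10 lower), against 24.6%. It was 16 (9 higher, 7 lower) under quantile normalization, against 29.9%, 4 of 84 (1 higher, 3 lower) with scaling and testing over genes of 1 TPM or more, where 5.12% of all genes were called, and 3 of 75 (1 higher, 2 lower) on TPM as deposited, against 14.6%.

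Stimulated cKO Treg had 30 of 75 members (40%) called, 6 higher and 24 lower, while among all genes 43.8% were called, 17.3% higher and 26.5% lower. The members' median was -0.24 against -0.01 over all genes, and it was -0.013 under quantile normalization. Here 7 of 35 members of complex I fell and 3 rose, 2 of 4 of complex II fell, 3 of 8 of complex III fell, 5 of 13 of complex IV fell and 1 rose, and 7 of 14 of complex V fell and 1 rose. Without cKO stimulated 3 the count was 17 (3 higher, 14 lower), against 34.1% of all genes. Under quantile normalization it was 21 (12 higher, 9 lower), against 39.1% of all genes. With scaling and testing over genes of 1 TPM or more it was 37 of 84, all 37 lower, against 17.5% of all genes, and on TPM as deposited 35 of 75 (1 higher, 34 lower) against 35.1%, so that the split into higher and lower and the comparison with all genes depended on the scaling and on the genes tested. Calls in both genotypes were made for 17 of 75 members, 14 lower and 3 higher, while 23.9% of all genes were called in both, 16.1% lower and 7.55% higher, and the 3 were Cox6b2, Atp5j2 and Cox4nb.

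**Figure D3:**
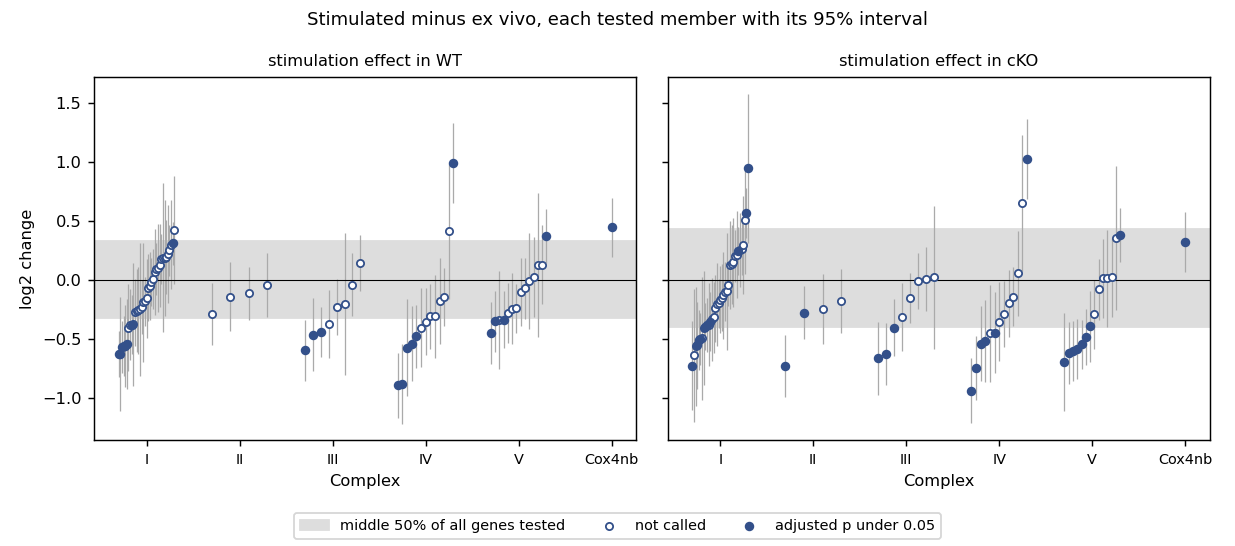
Log2 change from ex vivo to stimulated of each tested member with its 95% interval, ordered by size within each complex, in WT (left) and cKO (right), with a grey band over the middle 50% of all tested genes. Filled points mark an adjusted p under 0.05; 22 members are filled in WT and 30 in cKO.

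The difference between the stimulation effects of the genotypes was tested as an interaction. No member was called, against 1.1% of all genes, and 4 members, 5.33% of the 75, had an unadjusted p under 0.05 in limma (Ndufb7, Ndufb9, Sdhd and Atp5o), against 14.5% of all genes. The smallest adjusted p of a member was 0.185 in limma. For Ndufb9 the interaction was 0.39 with a 95% interval of 0.094 to 0.69, and for Sdhd it was -0.44 with -0.81 to -0.067. A different response of the genotypes was therefore not detected for any member with 3 libraries a group.

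In complex IV the largest falls and the largest rise were among the paralogues and accessory subunits. Cox7a2l (ENSMUSG00000024248, mm9 chromosome 17, 83901259 to 83913673, minus strand), a relative of the Cox7a subunits, stood at 125, 109 and 147 in WT ex vivo and 61.6, 74.9 and 65.95 in WT stimulated. In cKO it went from 108, 87.8 and 106 to 49.5, 54.9 and 51.1. The states did not overlap in either genotype. Cox7a2l fell by 0.89 in WT (SE 0.12, adjusted p = 0.000327, limma) and by 0.94 in cKO (SE 0.12, adjusted p = 0.0002, limma), and both calls held in 12 of 12 fits that left out 1 library. As 52.7% of the 51-base words of its transcripts match the genome elsewhere, its level could include or lose reads of copies.

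Cox7c, a small subunit of complex IV, stood at 24.4, 25.7 and 33.4 in WT ex vivo and 13.5, 13.1 and 17.3 after stimulation, a fall of 0.88 (SE 0.15, adjusted p = 0.0014, limma). In cKO the levels were 22.3, 18.9 and 23.2 and then 12.8, 16.7 and 17.2, a fall of 0.45 (SE 0.15, adjusted p = 0.0374, limma). The states did not overlap in either genotype. The cKO call was lost without any one of cKO stimulated 1 or 3 or cKO ex vivo 1 or 3 (adjusted p 0.0555 to 0.142, limma) and under quantile normalization (adjusted p = 0.24, limma), while the WT call held in all 12. Copies elsewhere match 29.7% of the words of Cox7c.

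Cox6b1 and Cox6b2 encode alternative forms of a subunit on the outer face of complex IV, of which Cox6b2 is known for testis. Cox6b1 stood at 169, 153 and 213 in WT ex vivo, 120.3, 136 and 123 in WT stimulated, 181, 174 and 182 in cKO ex vivo and 112, 112 and 94.9 in cKO stimulated. It fell without overlap in both genotypes, by 0.48 in WT (SE 0.12, adjusted p = 0.0119, limma) and by 0.75 in cKO (SE 0.12, adjusted p = 0.000733, limma), although under quantile normalization its changes were 0.12 and -0.0053 (adjusted p = 0.256 and 0.964, limma) and neither was called. Cox6b2 stood at 5.11, 4.16 and 3.77 in WT ex vivo, 9.34, 9.35 and 10.05 in WT stimulated, 2.66, 3.92 and 4.25 in cKO ex vivo and 7.31, 8.33 and 9.36 in cKO stimulated. It rose without overlap, by 0.99 (SE 0.15, adjusted p = 0.000668, limma) and 1.03 (SE 0.15, adjusted p = 0.000433, limma), the largest called rise of a member in either genotype. Cox6b2 reached the filter of 5 TPM only in the stimulated groups, where it was high, so this rank depends on the filter. All 4 calls of Cox6b1 and Cox6b2 held in 12 of 12 fits without 1 library. Over the alternatives the cKO rise of Cox6b2 was called in 21 of 23 and was as small as 0.55 (adjusted p up to 0.0679, limma). With scaling and testing over genes of 1 TPM or more, no member was called higher in cKO. Cox6b1 remained the more abundant form after stimulation, at 127 ± 8.69 against 9.58 ± 0.403 scaled TPM in WT (SD, n = 3).

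The other paralogues of complex IV differed mainly in level. Cox4i1, the common form of subunit 4, stood at 221, 168 and 277 in WT ex vivo and 136, 156 and 146 after stimulation, while Cox4i2, known for lung and for low oxygen, ranged over 2.03 to 5.33 in the 12 libraries. Cox4i1 fell by 0.57 in WT (SE 0.19, adjusted p = 0.0378, limma), and the change was 0.089 under quantile normalization. The call was lost without any one of WT ex vivo 1 or 3, WT stimulated 1, 2 or 3 or cKO ex vivo 3 (adjusted p 0.0504 to 0.143, limma). In cKO its change was -0.45 with an adjusted p of 0.0719 in limma, but other settings called it in opposite directions. It was called higher under quantile normalization, by 0.29 (adjusted p = 0.0391, limma), and lower on TPM as deposited, at -0.78 (adjusted p = 0.0317, limma), and without any one of WT ex vivo 2, cKO ex vivo 2 or cKO stimulated 2 (adjusted p 0.0257 to 0.04, limma). Cox8a went from 224, 205 and 275 to 159, 142 and 181 in WT and from 225, 217 and 245 to 175, 167 and 132 in cKO, with no overlap between the states. It fell by 0.54 in both (adjusted p = 0.0146 and 0.0118, limma), but quantile normalization gave 0.14 and 0.18, the WT call was lost without any one of WT ex vivo 3 or WT stimulated 2 (adjusted p 0.0578 to 0.0615, limma), and the cKO call without cKO stimulated 3 (adjusted p 0.0735, limma).

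Cox8b, known for heart and skeletal muscle, ranged over 0.809 to 4.75 scaled TPM and Cox8c, known for testis, over 0.815 to 4.60. Cox6a1, the common form of subunit 6a, ranged over 45.4 to 84.8 and Cox6a2, the muscle form, over 1.03 to 4.94. Cox7b ranged over 25.3 to 45.5 and Cox7b2, known for testis, over 0.577 to 2.82. Every tissue-restricted form in these pairs lay near the range of the silent genes, whose upper 5% began at 1.41 to 3.49 scaled TPM. Neither Cox6a1 nor Cox7b was called, but with stimulation in cKO Cox7b was called higher under quantile normalization (0.43, adjusted p = 0.0333, limma) and Cox6a1 lower without WT ex vivo 3 (adjusted p = 0.0312, limma).

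Cox7a2, the common form of subunit 7a, stood at 21.5, 19.7 and 26.8 in WT ex vivo, 19.5, 19.4 and 15.3 in WT stimulated, 25.8, 17.3 and 20.3 in cKO ex vivo and 16.02, 13.8 and 13.2 in cKO stimulated. It fell in cKO by 0.52 (SE 0.16, adjusted p = 0.0228, limma), a call lost without any one of cKO stimulated 3 or cKO ex vivo 1 or 3 (adjusted p 0.051 to 0.102, limma) and under quantile normalization (adjusted p = 0.0872, limma). In WT its change was -0.31 (adjusted p = 0.164, limma). Cox7a1, known for heart and skeletal muscle, went from 4.80, 4.44 and 3.07 to 8.13, 3.83 and 5.87 in WT and from 3.42, 6.22 and 3.43 to 7.25, 8.16 and 6.30 in cKO. In cKO its stimulated libraries all lay over the ex vivo ones, but its change of 0.65 was not called (adjusted p = 0.0628, limma). It was called without any one of cKO ex vivo 2, WT stimulated 1 or WT stimulated 2 (adjusted p 0.0195 to 0.0481, limma) and with median of ratios scaling.

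**Figure D4:**
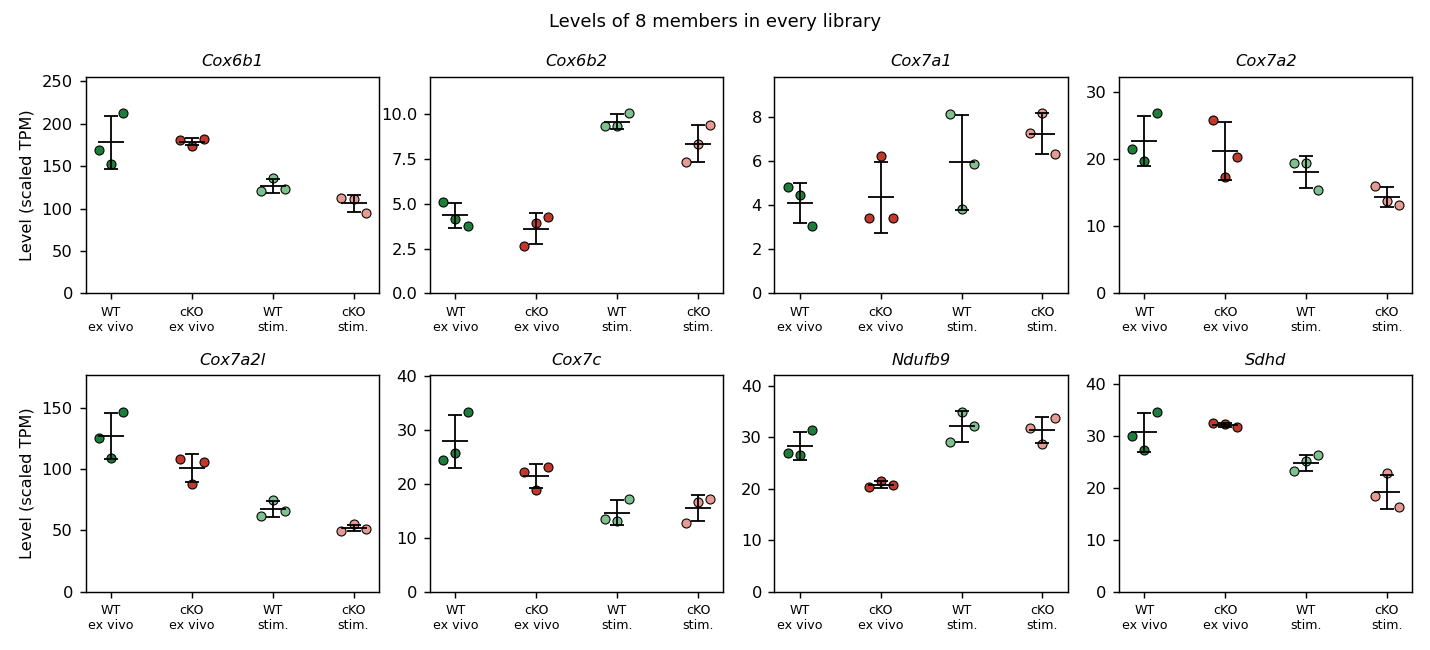
Level in scaled TPM of 8 members in each library, by group, with the group mean and SD (n = 3) as lines. Cox6b2 lies at 7.31 or more in the stimulated libraries and at 5.11 or less ex vivo, while Cox7a2l, Cox6b1 and Cox7c lie lower after stimulation in both genotypes; under quantile normalization Cox6b1 changed by 0.12 in WT and -0.0053 in cKO.

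The promoters of 4 of these members are shown because Cox7a2l had the largest fall and Cox6b2 the largest rise, Cox6b1 is the paralogue of Cox6b2, and Sdhd had the smallest adjusted p between the stimulated genotypes. Each line gives the 250 bases before the RefSeq transcript start in GRCm38.p6, read 5′ to 3′ on the strand of the gene, with the cores of NRF1 (GCATGCGC) and of ETS factors such as GABP (CCGGAAG) on either strand in capitals. Both factors are known regulators of respiratory chain genes. Cox7a2l and Cox6b1 fell in both genotypes (Cox6b1 in neither under quantile normalization), Cox6b2 rose in both, and Sdhd fell in cKO.
Cox7a2l chr17:83514334-83514583 minus strand: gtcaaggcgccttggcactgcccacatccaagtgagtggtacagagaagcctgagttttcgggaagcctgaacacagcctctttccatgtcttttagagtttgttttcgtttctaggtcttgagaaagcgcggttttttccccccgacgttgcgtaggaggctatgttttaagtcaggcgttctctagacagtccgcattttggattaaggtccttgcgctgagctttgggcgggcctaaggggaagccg
Cox6b1 chr7:30626115-30626364 minus strand: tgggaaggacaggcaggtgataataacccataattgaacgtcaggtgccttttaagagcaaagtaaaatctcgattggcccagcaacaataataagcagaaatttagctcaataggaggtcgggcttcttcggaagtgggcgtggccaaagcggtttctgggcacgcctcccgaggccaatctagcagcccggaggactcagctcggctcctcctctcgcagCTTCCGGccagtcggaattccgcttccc
Cox6b2 chr7:4753095-4753344 minus strand: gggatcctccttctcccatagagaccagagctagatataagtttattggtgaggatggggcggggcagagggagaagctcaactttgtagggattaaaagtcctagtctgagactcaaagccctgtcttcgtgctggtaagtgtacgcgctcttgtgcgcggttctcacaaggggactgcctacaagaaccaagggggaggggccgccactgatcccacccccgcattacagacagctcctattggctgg
Sdhd chr9:50603850-50604099 minus strand: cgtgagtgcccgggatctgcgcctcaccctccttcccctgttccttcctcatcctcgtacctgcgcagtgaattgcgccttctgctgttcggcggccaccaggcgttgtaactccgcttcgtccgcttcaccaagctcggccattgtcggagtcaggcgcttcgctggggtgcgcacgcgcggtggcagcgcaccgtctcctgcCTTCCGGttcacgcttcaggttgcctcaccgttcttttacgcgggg
Cox6b1 and Sdhd each hold 1 ETS core in these bases, and neither letter string is in those of Cox7a2l and Cox6b2.

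Promoter windows from 250 bases before to 50 after the start were found for 66 of the 84 members by symbol. The NRF1 core lay in the windows of 10 members (15.2%) and in 3.05% of the windows of all 27025 genes. The ETS core CCGGAAG lay in 16 (24.2%) against 9.93%, and the YY1 core AAGATGGC in 9 (13.6%) against 3.19%. The Ikaros core TGGGAA lay in 14 (21.2%) against 28.3%. Among the 13 members with a window that fell in both genotypes, the NRF1 core lay in 0, the ETS core in 3, the YY1 core in 0 and the Ikaros core in 2. Motifs were searched on both strands, and a match describes sequence only. The ETS and YY1 cores can share the letters AAG.

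Complex II feeds electrons from succinate, and its 4 genes were followed one by one. Sdha stood at 41.8, 35.7 and 42.8 in WT ex vivo, 34.8, 38.96 and 37.1 in WT stimulated, 44.2, 36.1 and 40.1 in cKO ex vivo and 33.2, 35.4 and 29.96 in cKO stimulated. It fell in cKO by 0.28 (SE 0.10, adjusted p = 0.0472, limma), but was 0.13 under quantile normalization. The call was lost without any one of WT ex vivo 1 or 3, WT stimulated 1, 2 or 3, cKO stimulated 1 or 3 or cKO ex vivo 1 or 3 (adjusted p 0.0529 to 0.246, limma). Sdhb, the iron-sulphur subunit, ranged over 20.2 to 29.8 and Sdhc, a membrane anchor, over 11.1 to 19.1, and neither was called, although Sdhc was lower in cKO with stimulation without cKO stimulated 2 (-0.41, adjusted p = 0.0324, limma).

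Sdhd (ENSMUSG00000000171, mm9 chromosome 9, 50404443 to 50411954, minus strand), the other membrane anchor, stood at 30.1, 27.3 and 34.7 in WT ex vivo and 23.2, 25.1 and 26.3 in WT stimulated, a change of -0.29 (adjusted p = 0.0878, limma). In cKO it went from 32.4, 32.3 and 31.6 to 18.5, 22.8 and 16.3. The states did not overlap in either genotype, and the lowest library was cKO stimulated 3. In cKO Sdhd fell by 0.73 (SE 0.12, adjusted p = 0.000756, limma), a call that held in 12 of 12 fits without 1 library.

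In complex I the calls included subunits of the NADH module and of the membrane arm. Ndufv3, an accessory subunit of the NADH-oxidising module, stood at 25.6, 25.1 and 28.2 in WT ex vivo and 15.5, 16.7 and 17.7 after stimulation, and at 23.7, 22.2 and 22.4 and then 19.2, 16.2 and 15.8 in cKO. It fell without overlap by 0.63 (SE 0.09, adjusted p = 0.000377, limma) and 0.40 (SE 0.09, adjusted p = 0.00527, limma), and both calls held in 12 of 12 fits without 1 library, but under quantile normalization its cKO change was -0.17 (adjusted p = 0.154, limma). The accessory subunits Ndufa7, Ndufa10, Ndufb11 and Ndufc2 were also called lower in both genotypes, by 0.35 to 0.73. Their WT calls held in 8 of 12 fits without 1 library for Ndufa7 and Ndufc2, and in all 12 for Ndufa10 and Ndufb11. Quantile normalization ended the calls of Ndufa7 in both genotypes, of Ndufc2 in WT and of Ndufa10 and Ndufb11 in cKO, and a replicate block that of Ndufc2 in WT. The cKO call of Ndufa7 held in 9 of the 12 fits. In WT but not in cKO Ndufa3 and Ndufb10 were called lower and Ndufb7 higher. In cKO but not in WT Ndufa2 was called lower and Ndufs4 higher. The call of Ndufa3 held in 2 of 12 fits without 1 library, that of Ndufs4 in 4, that of Ndufb10 in 8, that of Ndufa2 in 9 and that of Ndufb7 in 11, and those of Ndufa3 and Ndufa2 were lost under quantile normalization. None of these differences between the genotypes passed the test of the interaction.

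Stimulation raised Ndufb9 in cKO by 0.57 (SE 0.10, adjusted p = 0.00093, limma), where its level had been low ex vivo, and the call held in 12 of 12 fits without 1 library. It was lost with scaling and testing over genes of 1 TPM or more, at 0.025 (adjusted p = 0.943, limma), and on TPM as deposited, at 0.25 (adjusted p = 0.307, limma), while quantile normalization gave 0.91. The change of Ndufb9 in WT was 0.18 (adjusted p = 0.189, limma). It was called higher there in 2 of 24 alternatives, among them quantile normalization (0.38, adjusted p = 0.0375, limma). Ndufb4 went from 4.01, 1.94 and 2.74 to 4.39, 5.89 and 9.63 in cKO, a rise of 0.95 (SE 0.29, adjusted p = 0.0216, limma) from an ex vivo level within reach of the upper 5% of silent genes. It was highest in cKO stimulated 3, the library with the highest silent gene level, and without that library it did not reach 5 TPM and was not tested. Ndufb4 reached the filter only in cKO stimulated, the group where it was high, so the rise depends on the filter. The call was also lost without any one of cKO ex vivo 2 or 3 (adjusted p 0.0569 to 0.0648, limma). Quantile normalization (0.60, adjusted p = 0.165, limma) and subtraction of the silent gene level ended it too. Copies elsewhere match 33.9% of its words. Ndufa4 ranged over 28.3 to 91.1 and was not called, with a cKO change of -0.64 (adjusted p = 0.0647, limma) that was called on TPM as deposited (-0.96, adjusted p = 0.0433, limma), with scaling and testing over genes of 1 TPM or more, and without cKO stimulated 1 or cKO stimulated 2 (adjusted p = 0.0322 and 0.041, limma). Its paralogue Ndufa4l2, known for induction by low oxygen, ranged over 0.915 to 6.17.

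Complex III had 3 members lower in each genotype. Uqcrfs1, the Rieske iron-sulphur protein that passes electrons towards cytochrome c, went from 47.8, 43.6 and 52.5 to 32.7, 31.1 and 30.1 in WT and from 50.7, 39.96 and 44.8 to 26.5, 33.8 and 26.5 in cKO. Its changes were -0.60 and -0.63 (adjusted p = 0.00296 and 0.0018, limma), and the states did not overlap. Uqcrh, the hinge protein at cytochrome c1, was lower in both genotypes, Uqcrq in WT and the core protein Uqcrc2 in cKO. These 4 calls were lost under quantile normalization, and that of Uqcrh in WT held in 8 of 12 fits without 1 library and that of Uqcrc2 in 10. Uqcrc1, the most abundant member of complex III, was not called in WT at 0.15 or in cKO at -0.007, but it was called higher in both under quantile normalization, by 0.51 and 0.53 with adjusted p of 0.000196 and 0.000138 in limma (range over all alternatives 0.000196 to 0.875 in WT and 0.000138 to 0.985).

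In complex V, the subunits of the catalytic head and stalk were among those lower. Atp5a1 went from 148, 118 and 133 to 86.1, 97.3 and 81.04 in cKO without overlap, and fell by 0.58 (SE 0.12, adjusted p = 0.0024, limma), although quantile normalization gave 0.060. In WT it went from 135, 111 and 140.1 to 100.02, 108 and 108, a change of -0.28 that was not called (adjusted p = 0.084, limma), but it was called higher under quantile normalization, by 0.18 (adjusted p = 0.0185, limma), and lower without WT ex vivo 2, at -0.38 (adjusted p = 0.0299, limma). The gamma subunit gene Atp5c1 and the stator gene Atp5f1 were called lower in both genotypes, and the beta subunit gene Atp5b, Atp5l and Atp5o in cKO. In WT the call of Atp5c1 held in 11 of 12 fits without 1 library and that of Atp5f1 in 8, and both were lost under quantile normalization. In cKO the call of Atp5b held in 7 and was lost under quantile normalization, with a replicate block and after subtraction of the silent gene level, that of Atp5l held in 10, and those of Atp5c1, Atp5f1 and Atp5o in all 12. Copies match 89.4% of the words of Atp5l, and exons of Atp5o overlap those of Donson on the same strand.

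Atp5j2, a small membrane subunit, stood at 22.2, 17.2 and 22.97 in WT ex vivo, 26.98, 26.2 and 27.9 in WT stimulated, 22.3, 21.6 and 23.3 in cKO ex vivo and 28.8, 27.9 and 31.97 in cKO stimulated. It rose without overlap by 0.37 (SE 0.10, adjusted p = 0.0188, limma) and 0.38 (SE 0.10, adjusted p = 0.0131, limma), but with scaling and testing over genes of 1 TPM or more its cKO change was -0.16. The WT call was lost without any one of WT stimulated 1 or 3 (adjusted p 0.0511 to 0.0633, limma), while the cKO call held in all 12 such fits.

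Atp5g1, Atp5g2 and Atp5g3 encode the same mature subunit c, which forms the rotor ring. Atp5g3 stood at 32.1, 28.9 and 38.02 in WT ex vivo, 25.7, 27.02 and 23.8 in WT stimulated, 33.2, 28.7 and 34.9 in cKO ex vivo and 22.6, 21.6 and 18.5 in cKO stimulated. It fell by 0.35 in WT (SE 0.12, adjusted p = 0.0412, limma), and by 0.60 in cKO (SE 0.12, adjusted p = 0.00224, limma). The cKO call held in all 12 fits without 1 library, while the WT call was lost without any one of WT ex vivo 1 or 3, WT stimulated 1, 2 or 3 or cKO ex vivo 1 (adjusted p 0.0557 to 0.167, limma), under quantile normalization, at -0.14 (adjusted p = 0.291, limma), and with a replicate block (adjusted p = 0.0654, limma). Atp5g1 ranged over 3.30 to 5.33 and Atp5g2 over 2.59 to 6.47, and copies elsewhere match 27.9% of the words of Atp5g1 and every word of Atp5g2, so that the order of the 3 genes is uncertain.

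Cox4nb encodes a subunit of a membrane protein complex of the endoplasmic reticulum, not of complex IV. On mm9 chromosome 8 its minus strand start at 123192012 lies next to the plus strand start of Cox4i1 at 123192190. Cox4nb went from 5.15, 5.54 and 4.26 to 7.75, 6.96 and 6.69 in WT. In cKO it went from 5.33, 5.95 and 5.38 to 7.85, 6.54 and 7.24. Its rises were 0.45 (SE 0.11, adjusted p = 0.0123, limma) and 0.32 (SE 0.11, adjusted p = 0.0408, limma), without overlap, and the cKO change was -0.16 with scaling and testing over genes of 1 TPM or more. The cKO call was lost without any one of WT stimulated 2 or 3, cKO stimulated 1 or 3 or cKO ex vivo 1 or 3 (adjusted p 0.0534 to 0.124, limma), and the WT call without WT stimulated 1 (adjusted p 0.0551, limma).

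The change with stimulation moved with the level of the gene. The 14 members with a mean level under 10 scaled TPM had a median change of 0.19 in WT and 0.26 in cKO, the 37 from 10 to 30 had -0.18 and -0.21, and the 24 of 30 or more had -0.38 and -0.43. All tested genes showed the same order, with medians of 0.18, -0.09 and -0.31 in WT and of 0.31, -0.18 and -0.49 in cKO. Under quantile normalization the highest band had medians of 0.012 and 0.056 for members and 0.046 and -0.011 for all genes. In the highest band 37.5% of the members were called lower in WT, against 43.6% of all genes, and 54.2% in cKO, against 60.6%. Across the members Spearman's rho between level and change was -0.59 in WT and -0.65 in cKO (n = 75 genes, which share the libraries and the scaling), and -0.40 and -0.56 across all genes.

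**Figure D5:**
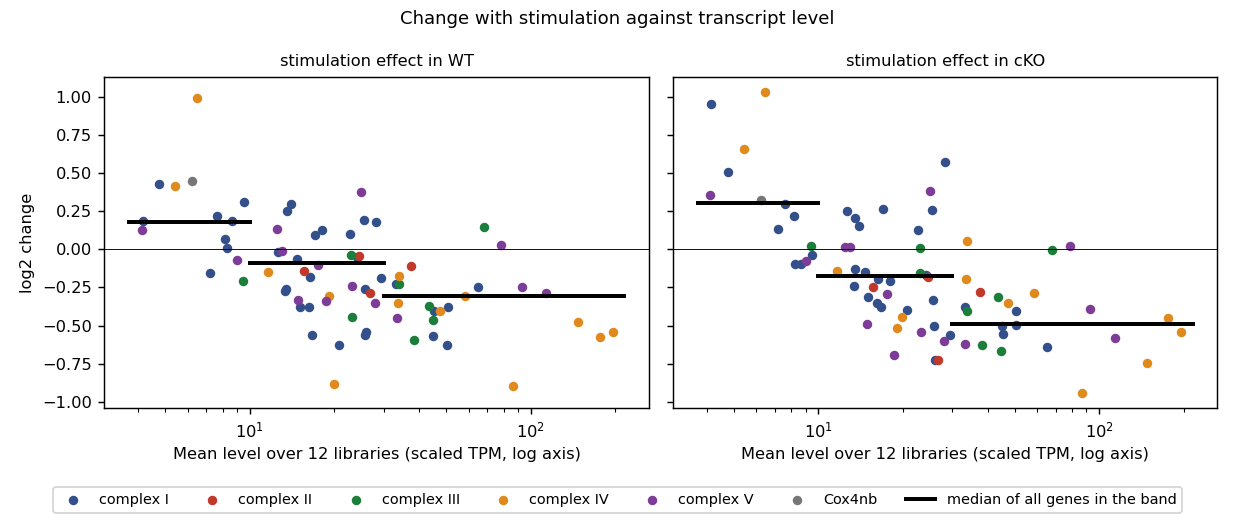
Log2 change with stimulation of each tested member (points coloured by complex) against its mean level over 12 libraries in scaled TPM on a log axis, in WT (left) and cKO (right). Black lines give the median of all tested genes under 10, from 10 to 30 and at 30 scaled TPM or more, which falls from 0.18 to -0.31 in WT and from 0.31 to -0.49 in cKO, and the members lie around these lines.

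The assembly factors and regulators of these complexes, listed with earlier results of these data known, were mostly not called. Among all genes 12.7% were called higher and 19.3% lower with stimulation in WT, and 17.3% and 26.5% in cKO. Of 6 tested assembly factors of complex I, 0 were called in WT and 1 was lower in cKO with stimulation, Ecsit, by 0.32 (adjusted p = 0.0336, limma). Of 2 for complex II, Sdhaf1 was lower in both genotypes, by 0.38 and 1.27 (adjusted p = 0.0239 and 1.12e-05, limma), with -0.13 in WT under quantile normalization (adjusted p = 0.338, limma), and the WT call was lost without any one of WT ex vivo 3 or WT stimulated 1 or 3 (adjusted p 0.0774 to 0.0913, limma). Of 3 for complex III, 0 were called in either. Among 13 for complex IV, 3 were lower in WT, and 4 were lower and 2 higher in cKO. Cox10, which makes the heme of complex IV, fell by 0.54 in WT and 0.38 in cKO (adjusted p = 0.00955 and 0.0374, limma). Surf1, an early assembly factor, fell by 0.67 in cKO (adjusted p = 0.00311, limma). Of 3 tested factors of the ATP synthase, 1 rose and 1 fell in WT and 1 rose in cKO. The calls of Surf1 and Tmem70 and that of Cox10 in WT held in 12 of 12 fits without 1 library, while Cox10 in cKO was lost without any one of WT ex vivo 3, WT stimulated 1, cKO stimulated 2 or 3 or cKO ex vivo 1, 2 or 3 (adjusted p 0.0507 to 0.127, limma) and Ecsit without any one of WT ex vivo 3, cKO stimulated 2 or 3 or cKO ex vivo 1, 2 or 3 (adjusted p 0.0602 to 0.0872, limma). The WT call of Cox10 was lost on TPM as deposited (adjusted p = 0.299, limma). Tmem70, needed to assemble the ATP synthase, rose by 0.49 and 0.73 (adjusted p = 0.00324 and 0.000231, limma), but with other filters and scalings its rises were as small as 0.26 and 0.22 (adjusted p up to 0.457 and 0.427, limma), and on TPM as deposited the cKO rise was 0.43 (adjusted p = 0.102, limma).

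Of 14 tested nuclear regulators, 1 was higher and 3 were lower with stimulation in WT, against 32% of all genes called, and 3 were higher and 3 lower in cKO, against 43.8%. Tfb2m, a factor of mitochondrial transcription, fell by 0.82 and 0.41 (adjusted p = 3.11e-05 and 0.00223, limma). Gabpb1, a partner of the ETS factor GABP, fell by 0.38 and 0.90 (adjusted p = 0.0366 and 0.000264, limma). Pprc1, a coactivator of the PGC-1 family, rose by 0.37 and 0.49 (adjusted p = 0.0188 and 0.00332, limma), although its cKO change was -0.038 with scaling and testing over genes of 1 TPM or more. Ppargc1b, another coactivator of that family, fell in WT by 0.69 (adjusted p = 0.0116, limma), a call lost without any one of WT ex vivo 1 or 3 (adjusted p 0.0518 to 0.0566, limma) and on TPM as deposited, at -0.52 (adjusted p = 0.199, limma), and its change in cKO was -0.31 (adjusted p = 0.173, limma). Polrmt, the mitochondrial RNA polymerase, rose in cKO by 0.60 (adjusted p = 0.000664, limma), a call lost with scaling and testing over genes of 1 TPM or more, at 0.094 (adjusted p = 0.762, limma), and on TPM as deposited, at 0.30 (adjusted p = 0.163, limma). The WT call of Gabpb1 was lost without any one of WT ex vivo 1 or 2, WT stimulated 1 or 3 or cKO ex vivo 3 (adjusted p 0.0506 to 0.135, limma), under quantile normalization (adjusted p = 0.115, limma) and with a replicate block (adjusted p = 0.0511, limma), and that of Pprc1 without any one of WT ex vivo 2 or 3 or WT stimulated 2 or 3 (adjusted p 0.0514 to 0.0764, limma). No gene of these lists was called between the genotypes ex vivo, and after stimulation 1 was, the complex II assembly factor Sdhaf1. Gabpb1 was nearest ex vivo, at 0.48 with an adjusted p of 0.0514 in limma, and it was called higher in cKO in 7 of 24 alternatives, among them quantile normalization (adjusted p = 0.0491, limma) and the fits without WT ex vivo 1 or cKO stimulated 2 (adjusted p = 0.0312 and 0.049, limma); over all alternatives its adjusted p ranged from 0.00668 to 0.804.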

How the data were processed

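The authors sequenced total RNA depleted of ribosomal RNA strand-specifically as paired reads of 51 bp, aligned these to mm9 with STAR 2.6.0c and counted reads on Ensembl exons by strand with HTSeq 0.6.1. The deposited table holds an expression signal in TPM per gene and library, and the authors also deposited the log2 of TPM plus the value of 1 read. How TPM were computed is not given in the sources used here. Whole reads came back from these columns for 99.9977% of values within 0.01. A further deposited table of the authors' own fold changes, F, p-values and FDR was not used.

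The 13318 genes that reached a mean of 5 TPM in any group were scaled by the unweighted trimmed mean of M-values (30% of M, 5% of A trimmed), with factors of 0.732 to 1.21. A pseudocount of 1 was added before log2, and 1 limma model (version 3.58.1, R 4.3.3) of the 4 groups took all 12 libraries, with a mean-variance trend. The 5 comparisons were tested two-sided, adjusted by Benjamini-Hochberg over all genes tested and called at an adjusted p under 0.05. Fold changes on this scale understate the change of low genes. The p-values rest on the spread between libraries within groups of 3, pooled over the 4 groups and moderated across genes. Replicates differed beyond counting error (chi-square per degree of freedom 4.91 to 55.3). Molecular identifiers are named in none of the sources used here, so reads are not independent molecules.

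Members, lists and tests were chosen with earlier results of these data known. Members with full values were the 3 largest rises and falls called per comparison, the highest of each complex, complex II and the paralogue groups, while Uqcrfs1 and the other called members were named after their values were seen. Of list genes, those called between genotypes and the 3 largest called changes with stimulation per list were eligible. The share of 51-base transcript words found elsewhere was counted in NCBIM37. Promoters are from RefSeq (GRCm38.p6). The script was tested on simulated data. Alternatives were other filters, pseudocounts and scalings, a replicate block, no trend and leaving out each library. Subtraction of the silent gene level and leaving out both libraries that stand apart were chosen after seeing the data. The values of 1 member are not reported here singly.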

Additional observations from a re-analysis of the deposited data

Results flagged for a closer look

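Sdhaf1, an assembly factor for the iron-sulphur subunit of complex II, responded to stimulation differently in the genotypes, by the test of the interaction. It stood at 37.1, 36.7 and 44.8 scaled TPM in WT ex vivo and 27.9, 33.9 and 28.9 in WT stimulated, and at 51.99, 43.4 and 48.4 and then 17.7, 19.7 and 20.4 in cKO. The stimulated genotypes did not overlap, with cKO the lower. The interaction was -0.89 on the log2 scale (SE 0.16, adjusted p = 0.023, limma), with -0.38 in WT and -1.27 in cKO. The call was lost without any one of WT ex vivo 2, WT stimulated 2 or 3, cKO stimulated 1 or cKO ex vivo 1 or 3 (adjusted p 0.0555 to 0.0749, limma) and with a replicate block (adjusted p = 0.0624, limma), and over all alternatives the adjusted p ranged from 0.00944 to 0.495. No member of the complexes themselves was called in this test.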

How the results depend on the processing

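Directions given for members with stimulation depend on the scaling. Quantile normalization moved the median of members to 0.0096 in WT and -0.013 in cKO. It reversed the changes of Atp5a1 (0.18 in WT, 0.060 in cKO), Cox4i1 (0.089 and 0.29), Cox8a (0.14 and 0.18), Mdh2 (0.027 and 0.11), and Cox6b1 in WT (0.12), and in cKO those of Cs (0.091), Sdha (0.13) and Uqcrc1 (0.53). Of 18 members lower in WT 7 were still called under it, and of 24 in cKO 9.

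With genes of 20 TPM or more, 3 of 48 members were called ex vivo between genotypes, 14 with stimulation in WT (6 higher, 8 lower) and 17 in cKO (9 higher, 8 lower), against 18.3%, 57.8% and 58.6% of all genes. The medians were 0.076 for the genotype effect after stimulation, -0.083 and -0.0015 for stimulation in WT and cKO and 0.11 for the interaction, and Mdh2 (0.014), Sdha (0.12) and Uqcrc1 (0.39) reversed in cKO. With a filter at 1 TPM, 0 members were called ex vivo (0.168% of all genes) and 4 with stimulation in WT (5.12%). The medians were -0.34 after stimulation, -0.40 and -0.71 with stimulation and -0.29 for the interaction. Without a filter the counts were 0 (0.121% of all genes) and 4 (4.63%), and the medians -0.34, -0.41, -0.70 and -0.27. In cKO both reversed Atp5j2 (-0.16 and -0.15), Cox4nb (-0.16 and -0.16), Cox19 (-0.037 and -0.032) and Pprc1 (-0.038 and -0.032).

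On TPM as deposited, 0 members were called ex vivo, 3 with stimulation in WT (1 higher, 2 lower) and 35 in cKO (1 higher, 34 lower). Of all genes 2.05%, 14.6% and 35.1% were called in these comparisons. The medians of all genes were 0.21 and -0.30 for the genotype effects, 0.18 and -0.31 for stimulation and -0.52 for the interaction. The members' medians were 0.18, -0.34, -0.024, -0.54 and -0.53. Quantile normalization called 0 members ex vivo (5.05% of all genes), subtraction of the silent gene level 3 of 72 (7.65%), and leaving out both libraries that stand apart 0 (3.41%), with 13 in WT stimulation (27.6%).

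Labels share replicate numbers, and deviations of same-numbered libraries correlated at -0.21 to 0.26. Between the genotypes ex vivo, pairs of the same number stood at 0.15, 0.26 and 0.078, and pairs of unlike number at -0.18 to 0.063. With 3 libraries a group these values cannot show whether libraries of a number share more than that number. With a replicate block 0 members were called ex vivo, 0 after stimulation, 21 with stimulation in WT, 28 in cKO and 0 in the interaction, against 3.87%, 4.73%, 29.6%, 41.0% and 0.488% of all genes.

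Leaving out 1 library gave 0 to 1 members called ex vivo (medians -0.13 to 0.028), 0 to 1 after stimulation (-0.12 to -0.033), 12 to 31 with stimulation in WT (-0.25 to -0.089), 17 to 35 in cKO (-0.31 to -0.20) and 0 to 0 in the interaction (-0.071 to 0.057). Of all genes these fits called 2.43 to 5.55% between the genotypes ex vivo and 2.90 to 7.55% after stimulation. With stimulation they called 24.6 to 32.9% of all genes in WT and 30.4 to 44.7% in cKO. WT stimulation called 12 without WT ex vivo 3 and 12 without WT stimulated 1, and cKO stimulation 17 without cKO stimulated 3. All 12 such fits held 8 of the 18 falls and 1 of the 4 rises in WT, and 14 of 24 and 3 of 6 in cKO. The 9 members under 5 TPM in every group were not tested.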

Other observations

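Genes around the respiratory chain were followed through the same fits. All 13 genes of the tricarboxylic acid cycle, which supplies NADH and succinate, were tested, and with stimulation 3 fell in WT and 6 in cKO, with medians of -0.19 and -0.30, while 19.3% and 26.5% of all genes were called lower. Idh3g, a subunit of the NAD-dependent isocitrate dehydrogenase, went from 55.2 ± 3.36 to 37.7 ± 1.34 scaled TPM in WT and from 53.00 ± 3.64 to 32.2 ± 4.92 in cKO (SD, n = 3), changes of -0.54 and -0.71 (adjusted p = 0.00268 and 0.000375, limma). Its WT call was lost on TPM as deposited, at -0.34 (adjusted p = 0.296, limma). Quantile normalization gave -0.23 in WT and -0.31 in cKO, both called. Mdh2, the mitochondrial malate dehydrogenase, had changes of -0.34 and -0.38 (adjusted p = 0.0443 and 0.0214, limma), which were 0.027 and 0.11 under quantile normalization. Suclg2 of the succinate-CoA ligase fell in WT by 0.56 (adjusted p = 0.0205, limma), and Cs, the citrate synthase, in cKO by 0.40 (adjusted p = 0.0283, limma), with 0.091 for Cs under quantile normalization. Calls were lost for Mdh2 in WT without any one of WT ex vivo 1 or 3, WT stimulated 1, 2 or 3, cKO stimulated 1 or cKO ex vivo 1 or 3 (adjusted p 0.0526 to 0.172, limma) and in cKO without any one of cKO stimulated 3 or cKO ex vivo 1 (adjusted p 0.0841 to 0.136, limma), for Suclg2 without any one of WT ex vivo 3 or WT stimulated 3 (adjusted p 0.0807 to 0.0939, limma) and for Cs without any one of cKO stimulated 3 or cKO ex vivo 1 or 3 (adjusted p 0.0863 to 0.16, limma).

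Of 9 tested genes for electron carriers and coenzyme Q synthesis, 2 fell in WT and 2 in cKO. Coq10b, which binds coenzyme Q, went from 60.9 ± 7.92 to 24.4 ± 6.43 in WT and from 55.5 ± 8.62 to 17.3 ± 3.59 in cKO (SD, n = 3), changes of -1.31 and -1.63 (adjusted p = 0.000671 and 0.000135, limma). Etfa, a subunit of the electron transfer flavoprotein, fell by 0.60 and 0.72 (adjusted p = 0.00217 and 0.00055, limma). On TPM as deposited its WT call was lost, at -0.42 (adjusted p = 0.166, limma).

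Of 4 tested genes in the list of subunits named outside the rule, which also holds Cox4nb, 1 rose and 1 fell in each genotype. Usmg5, a membrane subunit of the ATP synthase, fell in WT by 0.84 (adjusted p = 0.0191, limma). 2010107E04Rik, another small subunit of that enzyme, fell in cKO by 0.71 (adjusted p = 0.0376, limma). The call of Usmg5 was lost without any one of WT ex vivo 3 or WT stimulated 1 or 2 (adjusted p 0.0554 to 0.0768, limma) and that of 2010107E04Rik without any one of WT stimulated 3, cKO stimulated 3 or cKO ex vivo 1, 2 or 3 (adjusted p 0.0507 to 0.178, limma). Quantile normalization also ended both, with -0.65 for Usmg5 and -0.25 for 2010107E04Rik (adjusted p = 0.056 and 0.373, limma), and a replicate block that of 2010107E04Rik (adjusted p = 0.0634, limma). Cyc1, the cytochrome c1 of complex III, was not called.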
